A study of Homo sapiens with 12 samples.

Results

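The genes of cellular iron uptake, storage and export and of the iron hormone hepcidin were examined in HepG2 cells, a human hepatocellular carcinoma line. The 10 genes are a list drawn up by known role, with earlier results of these data known. All 10 were found by symbol among the 57500 Ensembl genes of the count tables: TFRC, TFR2 and SLC11A2 (uptake), SLC40A1 (export), FTH1 and FTL (storage), ACO1 and IREB2 (iron-sensing RNA-binding proteins), HAMP (hepcidin) and BMP6 (its inducer). Total RNA was sequenced in 12 libraries. The question was how thiosulfate sulfurtransferase (TST, rhodanese), a mitochondrial enzyme that converts cyanide to thiocyanate, acts on the transcriptome. There were 4 libraries of wild-type cells (WT), 4 of cells carrying a short hairpin RNA against TST (shTST) and 4 of cells overexpressing TST (overTST). All were kept for 24 h in the normal culture medium, which itself contains glycine. The overexpressed TST was a codon-optimised coding sequence driven by the CMV promoter and delivered by lentivirus, and transduced cells were selected with an antibiotic. The methods name no single-cell cloning and no empty-vector or scrambled-hairpin control for these libraries, so an effect of transduction and selection cannot be told apart from that of TST. All 3 groups are 1 cell line, and the labels number the 4 libraries of each group from 1 to 4.

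Iron circulates bound to transferrin, which cells take up through transferrin receptor 1 (TFRC), while the hepatocyte receptor TFR2 acts mainly as a sensor of iron-loaded transferrin. SLC11A2 (DMT1) carries ferrous iron out of endosomes, ferritin made of FTH1 and FTL chains stores it, and ferroportin (SLC40A1) is the known exporter. Iron-responsive elements (IREs) are RNA hairpins that bind the iron regulatory proteins ACO1 (IRP1) and IREB2 (IRP2) when iron is scarce: in the 3′ UTR of TFRC this protects the messenger RNA, and in the 5′ UTR of ferritin and ferroportin it blocks translation, a step that RNA counts do not read. Hepatocytes secrete hepcidin (HAMP), which removes ferroportin from the cell surface, and HAMP transcription is driven by BMP6 through SMAD proteins and by interleukin 6 through STAT3.

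The IRE sequences are shown because they are the known sites of iron control in these messenger RNAs. Protein-coding GENCODE 29 transcripts (GRCh38) were searched on the sense strand for an unpaired C, 5 bases, the loop CAGTGN and 5 bases able to pair with the first 5, G with U pairs included. TFRC held 4 matches, all in its 3′ UTR, and FTH1, FTL and SLC40A1 held 1 each in the 5′ UTR; the letters were not found in the other 6 genes. SLC11A2 is known to have an isoform with a 3′ element, which this strict pattern does not match. The matches therefore need not be all the elements of a gene, TFRC included. The element was in 3 of 4 coding transcripts of TFRC, 7 of 8 of FTH1, the 1 of FTL and 1 of 5 of SLC40A1. The search found a match in 291 of 19684 protein-coding genes (1.48%). In the lines that follow, read 5′ to 3′ and written with T for U, the capitals mark the 6-base loop.
TFRC, chr3:196050979-196051007, minus strand: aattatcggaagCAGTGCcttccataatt
TFRC, chr3:196050575-196050603, minus strand: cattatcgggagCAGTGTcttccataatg
TFRC, chr3:196050510-196050538, minus strand: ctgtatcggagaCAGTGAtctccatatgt
TFRC, chr3:196050463-196050491, minus strand: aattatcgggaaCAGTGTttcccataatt
FTH1, chr11:61967574-61967602, minus strand: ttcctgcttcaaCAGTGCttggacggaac
FTL, chr19:48965335-48965363, plus strand: ctcttgcttcaaCAGTGTttggacggaac
SLC40A1, chr2:189580661-189580689, minus strand: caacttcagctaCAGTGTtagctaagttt

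Total counts were 22911380 to 45120508 per library, and the overTST libraries were the shallowest. TST was at 47.2, 47.5, 52.8 and 48.5 CPM (counts scaled to the normalised library size) in WT replicates 1 to 4, at 33.0, 33.6, 36.6 and 33.5 in shTST and at 51.8, 56.0, 61.6 and 62.1 in overTST. It was lower in shTST (log2 fold change −0.52, SE 0.055, edgeR adjusted p = 3.2e-06) and higher in overTST (0.24, SE 0.062, edgeR adjusted p = 0.00384), the latter only for reads assigned to the native gene, and lost with a length correction (adjusted p = 0.201). All 12 hepatocyte markers were expressed, with ALB at 5127 to 8342 CPM. Of the other lists, 0 of 6 erythroid, 1 of 5 endothelial (PECAM1), 2 of 7 macrophage (LYZ and CD14) and 3 of 6 stellate cell or fibroblast markers (ACTA2, COL1A1 and PDGFRB) averaged 1 CPM or more, while HBB, KDR, MARCO and LUM had 0 counts in every library. Their summed level was 0.127 to 0.818 CPM for erythroid, 1.84 to 3.91 for endothelial, 1331 to 1747 for macrophage (nearly all LYZ; 1600 to 1678 in WT, 1331 to 1487 in shTST and 1500 to 1747 in overTST) and 71.7 to 83.7 for stellate cell markers. Mitochondrially encoded genes took 6.84 to 8.66% of counts in shTST, 6.91 to 11.98% in WT and 10.8 to 11.7% in overTST, and leaving them out changed 1 call among the iron genes, that of FTL in overTST against WT (adjusted p = 0.0197 in place of 0.0533). In bulk RNA a lower level can come from fewer cells expressing a gene or from less RNA per cell, and these cannot be told apart.

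The light chain of ferritin was by far the most abundant of the 10 messenger RNAs. Counts divided by exonic length (FPKM scale, mean ± SD, n = 4 WT libraries) were 7000 ± 375 for FTL and 687 ± 9.20 for FTH1. The main transferrin receptor TFRC stood at 35.4 ± 0.869 and its relative TFR2 at 13.5 ± 0.676. ACO1 (11.7 ± 0.506), SLC40A1 (11.3 ± 0.679) and HAMP (11.1 ± 1.24) followed and did not differ from each other beyond their spread. SLC11A2 (6.37 ± 0.584), IREB2 (4.65 ± 0.317) and BMP6 (0.0688 ± 0.0240) came last, and each step between them was larger than the SDs. The order of the middle genes depends on the length used. The exonic length of HAMP in the files is 3010 bases, since it includes a transcript that retains introns, while its principal transcript has 652; with principal transcript lengths, an alternative chosen after seeing the data, HAMP was at 51.3 ± 5.72, beside TFRC at 54.6 ± 1.34, and SLC11A2 (15.0 ± 1.38) and SLC40A1 (14.2 ± 0.854) no longer differed beyond their spread.

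**Figure D1:**
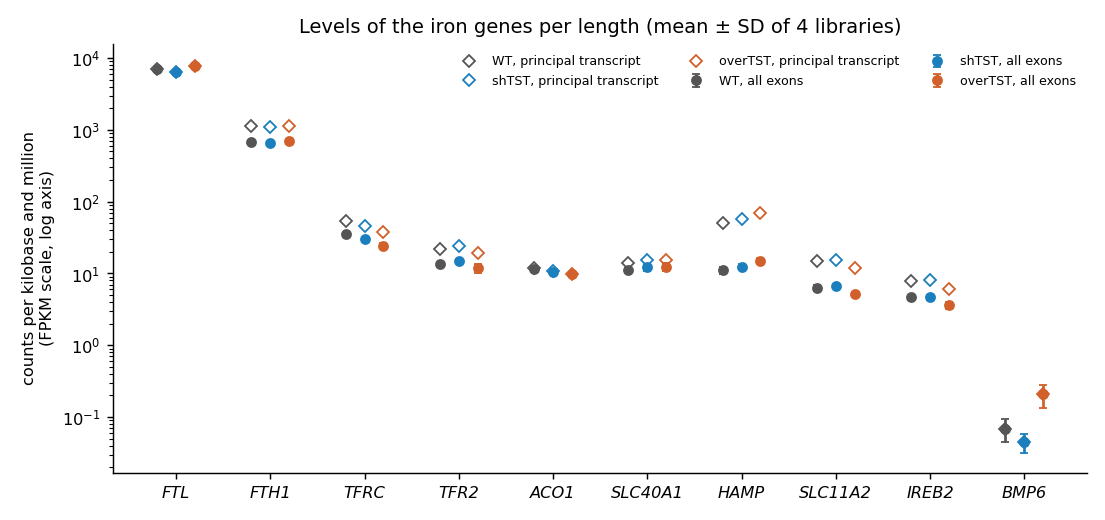
Level of each iron gene per length on the FPKM scale (log axis; filled circles, mean ± SD of 4 libraries by group with the exonic length of the files; open diamonds, group means with the length of the principal transcript). FTL (7000 in WT) lies 5 orders of magnitude above BMP6 (0.0688), and HAMP moves from 11.1 to 51.3 in WT with the other length.

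In overTST, messenger RNAs of uptake and iron-sensing genes were lower than in WT and HAMP was higher; in shTST, TFRC and ACO1 were lower. BMP6 had so few counts that it entered a test only through the overTST libraries, where it was high, and is left out of the counts that follow. In overTST against WT, 6 of the other 9 genes passed an adjusted p of 0.05 (edgeR quasi-likelihood test over all genes): 1 was higher (HAMP) and 5 lower (TFRC, TFR2, SLC11A2, ACO1 and IREB2). Over all genes tested the share was 33.9%, with 15.7% higher and 18.2% lower. In shTST against WT 2 of these 9 passed, 0 higher and 2 lower (TFRC and ACO1), near the 16.1% of all genes that passed, 6.69% higher and 9.40% lower. Whether the 2 counts differ by more than they do over all genes was not tested. The CPM of the groups did not overlap for 5 of the 9 genes in overTST against WT (30.4% of all genes tested) and for 2 of 9 in shTST against WT (19.1%). The median log2 fold change over the 9 genes was −0.20 in overTST and 0.020 in shTST, beside 0.0019 and 0.0040 over all genes. Both comparisons use the same WT libraries and are not independent. Since the list was drawn up with earlier results of these data known, a share above that of all genes is a description only.

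**Figure D2:**
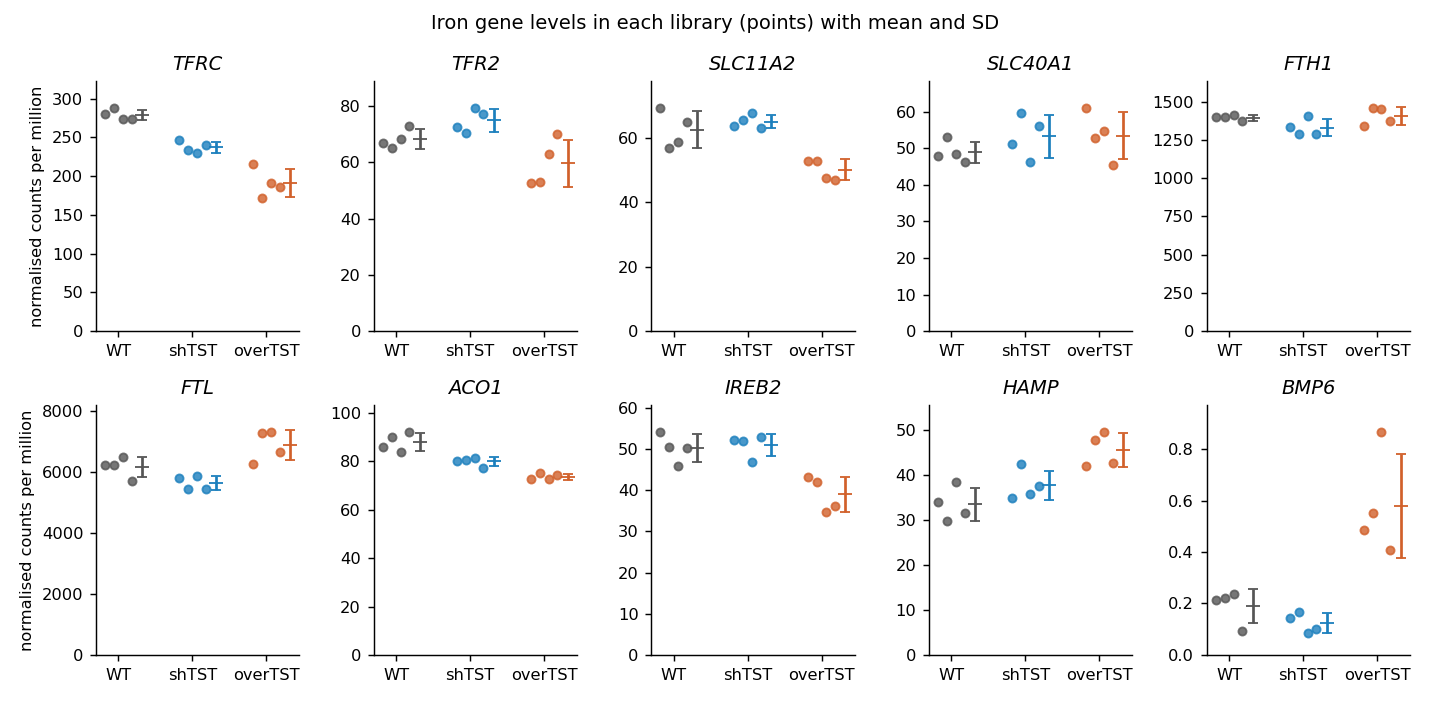
CPM of the 10 iron genes (y axes from 0, 1 panel per gene) in each of the 4 WT, shTST and overTST libraries; points are libraries and bars are the mean ± SD of each group. TFRC steps down from WT (273.5 to 288) through shTST (230 to 246) to overTST (172 to 215), and HAMP is highest in overTST (42.0 to 49.6).

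TFRC, the receptor that brings in transferrin-bound iron, was lower in both engineered lines. It was at 280, 288, 273.5 and 274 CPM in WT replicates 1 to 4, at 246, 234, 230.3 and 240 in shTST and at 215, 172, 191 and 186 in overTST. The 3 groups did not overlap, with WT highest, shTST between and overTST lowest. The fall was to 0.851 times WT in shTST (log2 fold change −0.23, SE 0.041, edgeR adjusted p = 5.85e-04) and to 0.685 times WT in overTST (−0.55, SE 0.056, edgeR adjusted p = 2.08e-07). Its 4 printed elements are those that the strict pattern matched and need not be all that the messenger RNA holds. Loss of IRP binding to elements in this 3′ UTR is known to shorten the life of the TFRC messenger RNA. Neither binding nor turnover was measured here.

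TFR2, the receptor that hepatocytes use to sense transferrin iron, moved less and with more overlap. It was at 66.7, 65.0, 68.3 and 72.9 CPM in WT, at 72.4, 70.4, 79.3 and 77.3 in shTST and at 52.6, 53.1, 62.9 and 69.9 in overTST. The overTST range reached into the WT range through replicate 4. The log2 fold change was −0.20 in overTST (SE 0.072, edgeR adjusted p = 0.0375), a call lost after upper-quartile scaling (adjusted p = 0.0719) or a length correction (0.104) and when any of WT replicates 1, 3 and 4 or overTST replicates 1 and 2 was left out (0.0545 to 0.163). In shTST it was 0.14 (SE 0.051, edgeR adjusted p = 0.0713). There a call was gained after upper-quartile scaling (adjusted p = 0.0428) or with the replicate block (0.0261, or 0.0171 with a length correction added). Leaving out WT replicate 4 (edgeR adjusted p = 0.0426) or shTST replicate 2 (0.0405) gained it too. Per library, the ratio of TFRC to TFR2 counts, which needs no scaling between libraries, was 3.76 to 4.43 in WT, 2.90 to 3.40 in shTST and 2.66 to 4.10 in overTST.

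SLC11A2, the ferrous iron carrier of endosomes, was lower in overTST. It was at 69.4, 56.9, 58.9 and 65.1 CPM in WT, at 63.7, 65.8, 67.7 and 63.2 in shTST and at 52.9, 53.0, 47.7 and 46.9 in overTST. All 4 overTST libraries were below all WT and shTST libraries, whose ranges overlapped. The log2 fold change was −0.32 in overTST (SE 0.065, edgeR adjusted p = 5.64e-04) and 0.059 in shTST (SE 0.057, adjusted p = 0.526). With a length correction the overTST value was −0.17 (adjusted p = 0.0412), a change of over 1.5 times in size that kept the call.

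The exporter gene SLC40A1 passed the test in neither line. Its CPM was 47.8, 53.0, 48.4 and 46.2 in WT, 51.1, 59.7, 46.3 and 56.0 in shTST and 61.1, 52.7, 54.6 and 45.5 in overTST. The 3 groups overlapped, and the libraries of the engineered lines spread more (SD 5.83 and 6.40 CPM) than those of WT (SD 2.94). The log2 fold changes were 0.12 in shTST (SE 0.066, edgeR adjusted p = 0.215) and 0.13 in overTST (SE 0.070, adjusted p = 0.154). Leaving out shTST replicate 3 or overTST replicate 4, the lowest library of each line, gave 0.19 (edgeR adjusted p = 0.0464) and 0.20 (adjusted p = 0.0255). Over all 8 such fits the value was 0.069 to 0.19 in shTST (edgeR adjusted p up to 0.532) and 0.059 to 0.20 in overTST (up to 0.518). In each line 1 of these 8 passed, and 0 of 11 other settings did.

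Of the storage genes, FTH1, the chain that oxidises incoming iron, was nearly level. It was at 1397, 1396, 1415 and 1370 CPM in WT, 1331, 1289, 1407 and 1290 in shTST and 1343, 1459, 1449 and 1371 in overTST. The log2 fold change was −0.069 in shTST (SE 0.047, edgeR adjusted p = 0.343) and 0.012 in overTST (SE 0.051, adjusted p = 0.881), and the groups overlapped. FTH1 shares 1267 exonic bases with BEST1 on the opposite strand, and whether counting used strand is not stated, but BEST1 had only 1 to 12 counts per library.

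FTL, the chain that supports the iron core, differed between the engineered lines and not, by this test, from WT. It was at 6209, 6216, 6472 and 5687 CPM in WT, 5788, 5447, 5845 and 5437 in shTST and 6265, 7261, 7317 and 6661 in overTST. All 4 overTST libraries were above all 4 shTST libraries, and WT lay between with overlap on both sides. The log2 fold change was −0.13 in shTST (SE 0.057, edgeR adjusted p = 0.136) and 0.16 in overTST (SE 0.064, adjusted p = 0.0533), close to the threshold. DESeq2 called both (adjusted p = 0.0372 and 0.014). Of 12 other settings, DESeq2 included, 5 called FTL in shTST and 7 in overTST. Of 8 fits leaving out 1 library, 0 called it in shTST and 2 in overTST. After a length correction the overTST value was −0.018 (edgeR adjusted p = 0.853). The ratio of FTL to FTH1 counts within a library was 4.15 to 4.57 in WT, 4.15 to 4.35 in shTST and 4.66 to 5.05 in overTST, so that the light chain was relatively higher in each overTST library than in any other. FTL and FTH1 differ in exonic length (878 and 2030 bases).

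Reads of ferritin genes can also fall on their processed pseudogenes. The 25 annotated FTH1 copies took 0.263 to 0.350% of the counts of FTH1 and its copies together, and the 16 FTL copies 0.0766 to 0.117%. The copies with the most counts were FTH1P10 (20 to 40 per library) and FTLP3 (83 to 143). Adding these counts to their parents changed no call.

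The 2 iron regulatory protein genes were lower in overTST. ACO1, whose product is a cytosolic aconitase when it holds an iron-sulfur cluster and an RNA-binding protein when it does not, was at 85.8, 90.1, 84.1 and 92.4 CPM in WT, 80.2, 80.7, 81.6 and 77.5 in shTST and 72.9, 75.3, 72.6 and 74.2 in overTST. The 3 groups did not overlap. The log2 fold change was −0.26 in overTST (SE 0.050, edgeR adjusted p = 3.59e-04) and −0.14 in shTST (SE 0.045, adjusted p = 0.0374). The shTST call was lost after upper-quartile scaling (0.0808) or a length correction (0.0526) and when WT replicate 2 or 4 or any 1 of the shTST libraries was left out (0.0535 to 0.162). With a length correction the overTST value was −0.16 (adjusted p = 0.0155), a change of over 1.5 times in size.

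IREB2, whose product is degraded in iron-replete cells and is regulated as a protein, was lower in overTST and level in shTST. It was at 54.3, 50.6, 45.9 and 50.3 CPM in WT, 52.3, 51.9, 47.0 and 52.8 in shTST and 43.1, 42.0, 34.7 and 36.1 in overTST. All overTST libraries were below all others. The log2 fold change was −0.37 in overTST (SE 0.070, edgeR adjusted p = 2.78e-04), or −0.21 with a length correction (adjusted p = 0.0176), and 0.020 in shTST (SE 0.056, adjusted p = 0.85). The ratio of IREB2 to ACO1 counts was 0.545 to 0.632 in WT, 0.575 to 0.682 in shTST and 0.479 to 0.591 in overTST.

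HAMP, which encodes hepcidin, was higher in overTST. It was at 33.9, 29.9, 38.4 and 31.6 CPM in WT, 34.9, 42.3, 35.8 and 37.6 in shTST and 42.0, 47.7, 49.6 and 42.6 in overTST. The overTST libraries were all above the WT libraries, and 1 shTST library (replicate 2) exceeded the lowest overTST library. HAMP rose to 1.36 times WT in overTST (log2 fold change 0.45, SE 0.073, edgeR adjusted p = 5.34e-05), with 0.38 to 0.47 under 11 other settings and 0.39 to 0.52 when 1 library was left out, all past the threshold. In shTST the log2 fold change was 0.18 (SE 0.072, edgeR adjusted p = 0.102), and leaving out WT replicate 3, the highest of its group, gave 0.25 (adjusted p = 0.0152). Over all 8 such fits it was 0.12 to 0.25 (edgeR adjusted p up to 0.292). Of these 8, 1 passed, and 0 of 11 other settings did.

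BMP6, a ligand that endothelial cells of the liver supply to hepatocytes, was hardly expressed. Its raw counts were 7, 10, 7 and 3 in WT, 4, 5, 3 and 3 in shTST and 13, 13, 22 and 9 in overTST. As CPM, the overTST libraries (0.409 to 0.869) lay above the WT (0.0920 to 0.238) and shTST libraries (0.0870 to 0.168). In overTST it was 2.98 times WT (log2 fold change 1.58, SE 0.38, edgeR adjusted p = 0.00223; exact two-sided permutation p = 0.0286, which 4 libraries against 4 cannot go below). It entered that test only through the overTST libraries, so these values are a description and no evidence of a change, and DESeq2 gave no adjusted p at this count. In shTST against WT it was not tested. The 5 endothelial markers summed to 2.58 to 3.29 CPM in WT, 1.84 to 2.26 in shTST and 3.59 to 3.91 in overTST. Most of this was PECAM1 (means of 2.14, 1.61 and 3.28 CPM), and KDR was at 0 throughout. CDH5 went the other way in overTST (0.555 in WT, 0.299 in shTST and 0.229 in overTST). VWF (0.1385, 0.1538 and 0.2192) and STAB2 (0.0477, 0.0567 and 0.0599) were near 0. The part of these markers in the BMP6 values was not tested.

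Set directly against each other in a fit of 12 libraries, 7 of the 9 genes other than BMP6 differed between shTST and overTST (33.0% of all genes did). TFRC, TFR2, SLC11A2, ACO1 and IREB2 were higher in shTST and FTL and HAMP lower, where 16.9% and 16.1% of all genes were higher and lower. The groups did not overlap for 6 of 9 (29.2% of all genes tested). The differences, shTST minus overTST, were 0.31 for TFRC (SE 0.052, edgeR adjusted p = 6.58e-05), 0.33 for TFR2 (SE 0.069, adjusted p = 6.25e-04), 0.38 for SLC11A2 (SE 0.060, adjusted p = 4.78e-05) and 0.39 for IREB2 (SE 0.067, adjusted p = 1.06e-04). HAMP differed by −0.27 (SE 0.074, edgeR adjusted p = 0.00605) and FTL by −0.29 (SE 0.058, adjusted p = 4.34e-04). The fitted value of BMP6 was −2.21 (SE 0.42), with the limit given for it. The estimates of TFR2, SLC11A2, IREB2 and FTL had opposite signs against WT in the engineered lines. In shTST none of these 4 passed the edgeR test as reported, though some other settings called TFR2 or FTL. With a length correction FTL differed by −0.14 (adjusted p = 0.0446). The value of ACO1 (0.12, SE 0.046, edgeR adjusted p = 0.0488) fell to 0.031 with a length correction (adjusted p = 0.653), and no fit that left out 1 library called it (0.0535 to 0.115). SLC40A1 (−0.0090, SE 0.075) and FTH1 (−0.081, SE 0.046) did not pass (edgeR adjusted p = 0.941 and 0.192).

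**Figure D3:**
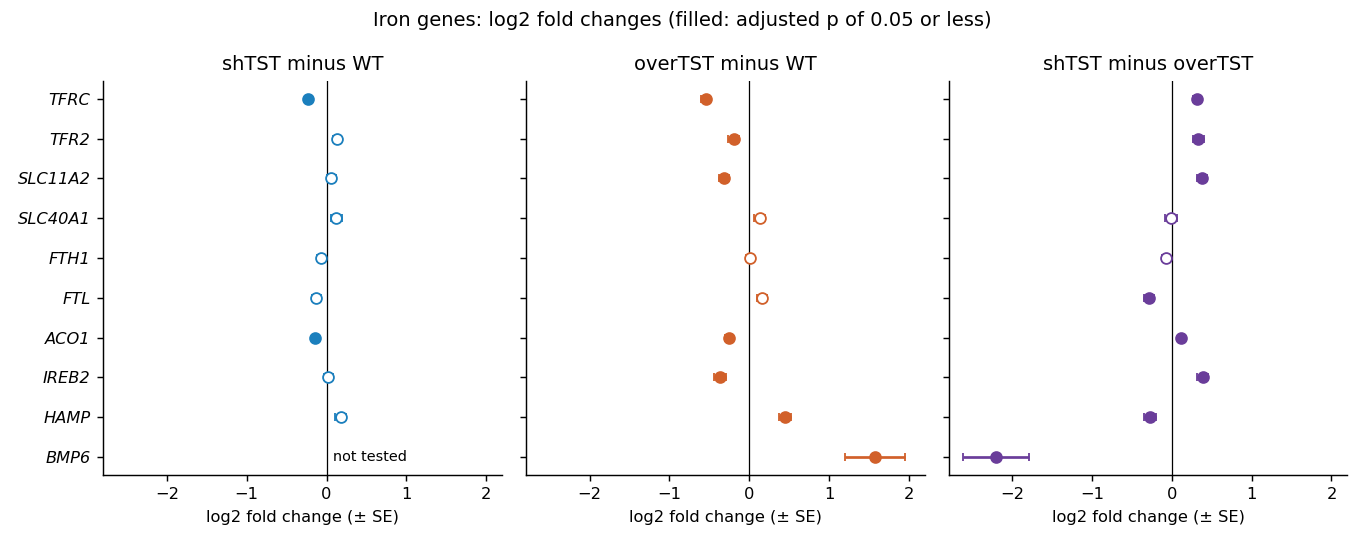
Log2 fold changes of the 10 iron genes (x axis, ± SE from edgeR) in shTST minus WT, overTST minus WT and shTST minus overTST; filled points have an adjusted p of 0.05 or less. TFRC is left of 0 in both lines against WT (−0.23 and −0.55), HAMP reaches 0.45 in overTST, and BMP6, tested only through the overTST libraries, has the widest error (SE 0.38 in overTST).

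Exonic length ran with the direction of change in overTST. The 4 longest iron genes, IREB2 (10806 bases), SLC11A2 (9823), TFRC (7887) and ACO1 (7555), were all lower. After each library was corrected for the trend of counts with length, TFRC stayed at −0.44 (edgeR adjusted p = 1.03e-06) and HAMP at 0.38 (1.98e-04), and IREB2, ACO1 and SLC11A2 kept their calls at smaller sizes. FTH1 then stood at −0.13 (adjusted p = 0.0507) and TFR2 at −0.16 (0.104). In shTST the correction moved TFRC only to −0.21 (edgeR adjusted p = 5.56e-04) and brought FTL past the threshold (−0.16, adjusted p = 0.0423).

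**Figure D4:**
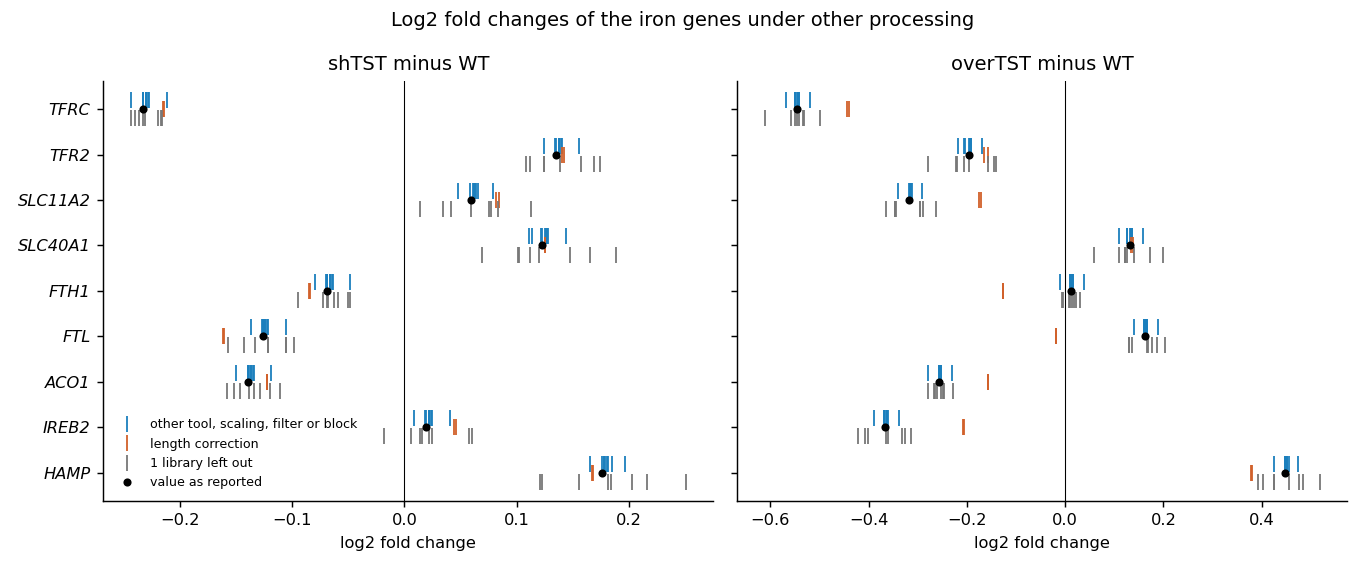
Log2 fold changes against WT (x axis) of 9 iron genes, BMP6 left out, as reported (black points), under other tools, scalings, filters or the replicate block (blue ticks), under length corrections (orange ticks) and with 1 library left out (grey ticks). In overTST the length corrections pull TFRC from −0.55 to −0.44 and FTL from 0.16 to −0.018, while HAMP stays at 0.38 or more.

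The other genes of iron handling were read from 6 lists. The share of genes called in a list is given with that of all genes tested, which was 16.1% in shTST and 33.9% in overTST; no list was tested as a set. Of 12 tested genes of iron uptake, export and reduction, 1 rose and 1 fell in shTST, and 0 rose and 2 fell in overTST, 16.7% of the list in each line, near and below the shares of all genes. SLC39A14 (ZIP14), which carries iron not bound to transferrin into hepatocytes, fell in both lines, from 519 to 542 CPM in WT to 414 to 467 in shTST (log2 fold change −0.26, SE 0.045, edgeR adjusted p = 5.23e-04) and 323 to 371 in overTST (−0.64, SE 0.051, adjusted p = 7.79e-09). Its 3 groups did not overlap, in the same order as TFRC. TF, which encodes transferrin itself, rose in shTST (0.41, SE 0.082, edgeR adjusted p = 0.00185), where its libraries ranged from 2098 to 3099 CPM against 1795 to 2125 in WT. STEAP3, a ferrireductase of endosomes, fell in overTST (−0.17, edgeR adjusted p = 0.0148).

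Of 12 genes of ferritin turnover, iron chaperones and control of the iron regulatory proteins, 0 rose and 3 fell in shTST (25%), and 1 rose and 3 fell in overTST (33.3%, near the 33.9% of all genes). NCOA4, the receptor that delivers ferritin for breakdown, fell in both lines, by 0.18 on the log2 scale in shTST (SE 0.045, edgeR adjusted p = 0.00913) and by 0.29 in overTST (SE 0.055, adjusted p = 2.32e-04). In shTST EPAS1, whose messenger RNA is known to carry a 5′ IRE, also fell (−0.20, edgeR adjusted p = 0.00968). In overTST HERC2, a ubiquitin ligase, fell by 0.46 (edgeR adjusted p = 5.14e-05). CDC42BPA, whose 3′ UTR is known to carry an IRE, fell by 0.27 (edgeR adjusted p = 0.00524), while BDH2, linked to siderophore synthesis, rose by 0.34 (adjusted p = 0.0142). With a length correction 2 genes of this list rose and 2 fell in overTST.

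Of 31 genes of hepcidin regulation, 2 rose and 2 fell in shTST (12.9%), and 3 rose and 8 fell in overTST (35.5%), both near the shares of all genes, so that the genes named are single results. TMPRSS6, the protease that dampens BMP signalling to HAMP, rose in shTST (0.36, SE 0.075, edgeR adjusted p = 0.00244), from 10.9 to 12.5 CPM in WT to 14.0 to 15.7. In the same line IL6R, the interleukin 6 receptor, fell (−0.42, SE 0.070, edgeR adjusted p = 3.7e-04), as did the protease FURIN (−0.27, adjusted p = 0.0019), and SMAD5 rose (0.22, adjusted p = 0.0372). In overTST the fallers included JAK1, the kinase of the interleukin 6 receptor (−0.38, SE 0.058, edgeR adjusted p = 2.73e-05), NEO1, a partner of hemojuvelin (−0.44, adjusted p = 4.06e-05), and the BMP receptor BMPR2 (−0.41, adjusted p = 2.04e-04), while FKBP1A, which holds BMP type I receptors inactive, rose (0.26, adjusted p = 2.15e-04). Other genes that passed in overTST were BMP4 and ID1, higher, and IL6ST, STAT3, SMAD1, SMAD4 and ACVR2B, lower. With a length correction 3 rose and 3 fell.

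Of 27 genes of mitochondrial iron import and iron-sulfur cluster assembly, 0 rose and 1 fell in shTST (ABCB8, −0.22, edgeR adjusted p = 0.0191), and 9 rose and 1 fell in overTST. The share called was 3.7% in shTST and 37% in overTST, beside 16.1% and 33.9% of all genes, of which 15.7% were higher and 18.2% lower in overTST. The cluster carriers BOLA3 (0.34, edgeR adjusted p = 0.00128) and GLRX5 (0.17, adjusted p = 0.00751) and the sulfhydryl oxidase GFER (0.25, adjusted p = 0.00256) were among the 9 that rose, and the transporter ABCB10 fell (−0.43, adjusted p = 5.17e-05). The list median was 0.11 in overTST, beside 0.0019 over all genes, and with a length correction 4 rose and 2 fell with a median of 0.078. Of 10 cytosolic assembly genes, 50% passed in overTST (33.9% of all genes) and 10% in shTST (16.1%). In overTST 4 rose, NUBP1 (0.26, edgeR adjusted p = 8.09e-04), CIAO2B (0.25, adjusted p = 0.001), NUBP2 (0.21, adjusted p = 0.00383) and CIAO2A (0.18, adjusted p = 0.0191), and 1 fell (MMS19). With a length correction 1 rose and 0 fell. In shTST 0 rose and 1 fell, MMS19 (−0.22, edgeR adjusted p = 0.00213).

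Of 16 heme genes, 3 rose and 3 fell in shTST (37.5%, beside 16.1% of all genes), and 4 rose and 3 fell in overTST (43.8%, beside 33.9%). LRP1, the receptor for heme bound to hemopexin, fell from 513 to 580 CPM in WT to 407 to 479 in shTST (−0.26, SE 0.052, edgeR adjusted p = 0.00167) and 303 to 354 in overTST (−0.72, SE 0.055, adjusted p = 5.2e-09). In shTST HMOX1, the enzyme that frees iron from heme (0.25, edgeR adjusted p = 0.00334), and the carriers HPX (0.29, adjusted p = 0.00663) and HP (0.24, adjusted p = 0.0113) rose. In overTST the heme-binding protein HEBP2 rose (0.33, edgeR adjusted p = 4.43e-05), and BACH1, the heme-sensing repressor of HMOX1 and ferritin genes (−0.54, adjusted p = 7.87e-05), and the porphyrin exporter ABCG2 (−0.45, adjusted p = 2.21e-04) fell. HMOX1 also rose in that line (0.15, edgeR adjusted p = 0.0388). With a length correction only 2 heme genes rose in overTST, and 3 fell. Between the engineered lines, TMPRSS6 was higher in shTST than in overTST by 0.45 (SE 0.076, edgeR adjusted p = 8.77e-05) and IL6R differed by −0.33 (SE 0.071, adjusted p = 7.33e-04), and 14 of the 31 hepcidin regulators differed, 9 higher and 5 lower in shTST (45.2%, beside 33.0% of all genes).

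**Figure D5:**
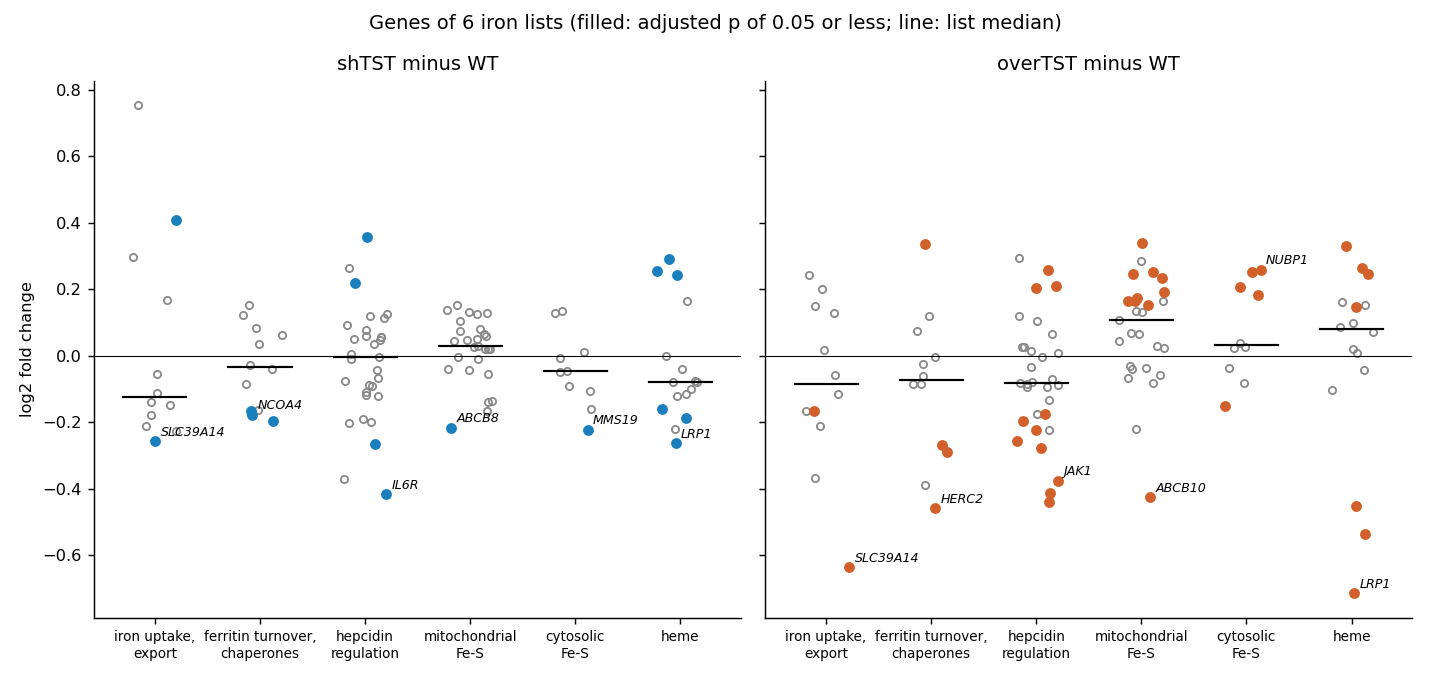
Log2 fold changes (y axis) of the tested genes of 6 iron lists in shTST minus WT and overTST minus WT; filled points passed an adjusted p of 0.05, lines are list medians, and the gene with the smallest p of each list is named. SLC39A14 (−0.64) and LRP1 (−0.72) lie lowest in overTST, and 9 mitochondrial iron-sulfur genes lie above 0 as filled points.

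The profiles closest to each changed gene were sought among 11554 genes, as the smallest root mean square difference of centred log2 CPM over the 12 libraries. ADAM9 and ZNF106 tracked TFRC (differences of 0.049 each, against an SD of 0.24 for TFRC itself). STX6 and MAP3K3 were closest to ACO1 (0.038 and 0.043) and SMC1A and SLC25A15 to IREB2 (both 0.059). UNG and XPC were closest to SLC11A2 (both 0.064) and BLOC1S1 and SLC44A4 to HAMP (0.070 and 0.081). Their own SDs were 0.11 for ACO1, 0.21 for IREB2, 0.19 for SLC11A2 and 0.22 for HAMP. For BMP6 the nearest were AQP3 and DUSP5 (0.37 and 0.41), but BMP6 itself had a wider SD of 0.81. The raw differences of BMP6 therefore cannot be set against those of the other genes. BMP6 is listed for its call in overTST, which is no evidence of a change. These likenesses describe 12 libraries that share their groups.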

How the data were processed

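RNA of 12 HepG2 libraries was extracted by column and sequenced by a commercial provider. The authors deposited, for each library, raw whole-number counts per Ensembl gene with exon positions and exonic length. The submitters' processing notes name GRCh38, Trimmomatic 0.36, STAR 2.5.2b and featureCounts of Subread 1.5.2; parameters, the annotation release and use of strand are not given in the sources used here. Groups and replicate numbers came from the labels.

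Each line was fitted against WT on its own 8 libraries and shTST against overTST on all 12 (R 4.3.3, edgeR 4.0.16: filterByExpr, TMM, quasi-likelihood test, Benjamini-Hochberg over all genes tested, threshold 0.05). CPM values were scaled by TMM over 12 libraries. Alternatives were DESeq2 1.42.0, limma-voom 3.58.1, RLE and upper-quartile scaling, other filters, a lowess length correction (span 0.3), the replicate block, leaving out mitochondrially encoded genes, adding pseudogene counts, and leaving out each library. On simulated shTST counts (14450 genes) edgeR recovered 92 of 100 genes changed by 0.5 on the log2 scale, and 7 unchanged genes were called. For simulated overTST counts (14280 genes) these were 95 of 100 and 6, and for the direct comparison (14700 genes) 85 of 100 and 10. Every simulated gene had the same spread, and few genes, all above 1 CPM, were changed. These rates therefore do not give the power for smaller changes or for genes of wider spread. The depth of 22911380 to 45120508 counts limits BMP6 most, at 3 to 22 counts per library.

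The genes and lists were chosen with earlier results of these data known. Named genes were the 10 genes, TST, up to 4 genes per list and comparison with the smallest p past 0.05, the ferritin copies with most counts and the 2 nearest profiles per changed gene without overlap; genes counted in a list and named beyond this rule were chosen after their values were seen. Same-numbered libraries of different groups did not deviate together (r of −0.053 to 0.080). The p-values measure the spread between libraries of 1 line. A few items of the lists are not reported here.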

Additional observations from a re-analysis of the deposited data

Results flagged for a closer look

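Among 30 groups of 4 libraries (10 genes in 3 groups), 2 had a library far from the other 3, with a gap to its neighbour above Dixon's 95% critical value as a share of the range; chance flags about 1 in 20. IREB2 in shTST replicate 3 was at 47.0 CPM below 51.9 to 52.8 in the others (ratio 0.844). BMP6 in WT replicate 4 was at 0.0920 CPM below 0.215 to 0.238 (ratio 0.846), which is 3 counts against 7 to 10. Without WT replicate 4 the log2 fold change of BMP6 in overTST against WT was 1.37 in place of 1.58; BMP6 entered that fit only through the overTST libraries, so this lends its call no support. Leaving out shTST replicate 3 gave IREB2 a log2 fold change of 0.060 in shTST against WT (edgeR adjusted p = 0.545, against 0.85 with it).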

How the results depend on the processing

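The share of all genes that passed was taken only for the reported fits. Counts under other settings therefore cannot be set against it and are not read as particular to the iron genes. With the replicate block and the length correction together, 4 of the iron genes passed in shTST against WT in place of 2. Leaving out 1 library gave 1 to 3 there, 6 to 8 of 10 in overTST and 7 of 10 in the direct comparison in each case, BMP6 included. WT replicate 2, shTST replicate 1 and shTST replicate 4 each left TFRC alone past the threshold in shTST. BMP6 entered the overTST and direct fits only through the overTST libraries, so its calls lend these counts no support. Without BMP6 the reported fits called 6 of 9 genes in overTST and 7 of 9 in the direct comparison. Under the other settings the counts were 2 or 3, 6 to 8, and 7 or 8, again with BMP6 where it was called. FTH1 in overTST turned from 0.012 to −0.127 (adjusted p = 0.0431) with the block and length correction; since the length correction without the block gave −0.127 too (adjusted p = 0.0507), the sign follows the length correction. The replicate block alone gave 3 calls in shTST (2 without), 8 in overTST (7 without) and 8 in the direct comparison, as without it. BMP6 is included in the overTST and direct counts. With a length correction, changed genes numbered 6 of 31 in the hepcidin list, 6 of 27 in the mitochondrial and 1 of 10 in the cytosolic iron-sulfur list in overTST (11, 10 and 5 without). The uptake and export list had 4 of 12 changed in overTST (2 without); between the lines, the same correction gave 1 in that list, 7 in the hepcidin and 4 in the mitochondrial list (3, 14 and 9 without), and DESeq2 gave 2 cytosolic genes in shTST (1 by edgeR). TFRC, SLC11A2, ACO1, IREB2 and HAMP in overTST and TFRC in shTST kept direction and call under every alternative run. DESeq2 gave no adjusted p for BMP6, whose counts of 3 to 22 limit it.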
